A study of Homo sapiens with 6 samples.

Results

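The 10 genes described here encode enzymes of the middle and lower steps of glycolysis. They are the phosphofructokinase genes PFKL, PFKM and PFKP, the aldolase genes ALDOA and ALDOC, the enolase genes ENO1, ENO2 and ENO3, and the single genes GAPDH and PGK1. The genes were chosen by symbol, by a rule that uses no measured value but was written with earlier results of these data known, and are 10 of the 56638 genes for which counts were given. All 10 passed the filter on low counts that left 23074 genes to be tested. The RNA sequencing comprised 6 libraries of colorectal cancer cells, 3 from cells given a nonspecific control siRNA and 3 from cells given siRNA against GLCC1, a long noncoding RNA that the sample titles call lncRNA-AF339830. The cells of both groups were at passage 16-19, grew in RPMI-1640 with 10% fetal bovine serum and carried no other treatment by the labels. The labels call the line SW480 and the methods of the study call it DLD-1, and which line it was, was not tested. The comparison asks which of these isozyme genes differed in RNA level after transfection of GLCC1 siRNA.

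Phosphofructokinase, aldolase and enolase are made as isozymes, enzymes of different genes that catalyse the same reaction. Phosphofructokinase commits sugar to glycolysis and is built of liver (PFKL), muscle (PFKM) and platelet (PFKP) subunits, which can form mixed tetramers. Aldolase splits fructose bisphosphate into a pair of triose phosphates. ALDOA is its form in muscle and most proliferating cells, and ALDOC the form first described in brain. GAPDH oxidises glyceraldehyde phosphate, and PGK1 takes the next step, the first that yields ATP. Enolase makes phosphoenolpyruvate and works as a dimer of the widespread ENO1 form, the neuronal ENO2 form or the muscle ENO3 form. Hypoxia-inducible factor and c-Myc are known as activators of several of these genes.

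Each library held 11948790 to 19042516 read pairs on genes. The titles number the libraries of both groups after the word siRNA, and do not say whether the number is a replicate or an siRNA sequence. The numbers are read as replicates here. Replicate 2 of the GLCC1 siRNA group stood apart from the other libraries. It was the smallest, 14.2% of its read pairs fell on no gene against 11.2% to 12.7% in the other 5, and its chi-square per degree of freedom against the other replicates of its group was 16.3 and 17.1, where the other pairs of replicates gave 1.84 to 3.84. Across 12343 genes, its deviation from the mean of the other replicates of its group ran against the GC content of the transcript (Pearson r = -0.66 across genes, which are not independent replicates). The other libraries also varied with GC content. The same r was -0.28, 0.35 and -0.09 for control replicates 1, 2 and 3. It was 0.45 and 0.57 for GLCC1 siRNA replicates 1 and 3, whose comparison includes replicate 2. Results that GLCC1 siRNA replicate 2 changed by over 1.5 times, or in call or sign, are given with and without it. The names of the sequencing libraries attach each group to the other siRNA than the titles do. The titles are followed here, and with the library names every difference below has the opposite sign. The level of GLCC1 itself was not analysed here, so that the labels were not checked against the targeted RNA. Among markers of colon epithelium, 9 of 11 had a mean of at least 1 CPM, the count of a gene relative to the scaled total of its library, and KRT20 and CEACAM5 had less. Of the 11, 7 were lower after GLCC1 siRNA, where 16.7% of all genes tested were lower at an adjusted p under 0.05 in edgeR. The summed level of the list was 5680 to 6220 CPM in the control libraries and 2279 to 2720 CPM in the GLCC1 siRNA libraries. The part of this difference in the results below was not tested, and fewer cells of a type and less RNA per cell cannot be told apart in such samples. Markers of fibroblasts summed to at least 16.1 CPM in each control library and to 10.7 to 13.3 CPM in the GLCC1 siRNA libraries. COL1A1 and PDGFRB had a mean of at least 1 CPM, and COL1A2, DCN and LUM had no count. COL1A1 was lower after GLCC1 siRNA, with means of 13.4 CPM for control siRNA and 7.38 CPM for GLCC1 siRNA (log2 fold change -0.86). Markers of leukocytes and endothelium summed to 3.97 to 4.64 CPM and 3.58 to 6.52 CPM. CD14 had a mean of at least 1 CPM, and PTPRC, PECAM1 and CDH5 had no count.

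Short stretches of DNA before the starts of the 10 genes are shown first, since the results below set isozymes of a step against each other. The 300 bases before the start of the canonical transcript were searched on both strands for the E-box CACGTG, which c-Myc can bind, and for ACGTG or GCGTG, the core of the hypoxia response element. An E-box also contains the core ACGTG, so that the motifs overlap. Of 17725 promoters of protein-coding genes with the same window, 8.96% held the E-box and 56.6% the core. Among the 10 genes, ALDOC alone held the E-box. The core was found at 4 places before ALDOC, 3 before PFKL, 3 before GAPDH, 3 before PGK1, 2 before ENO1, 1 before ALDOA and 1 before ENO2, and not in the windows of ENO3, PFKM and PFKP. The match nearest to the start is printed for each of the 7 genes that had one, together with the E-box of ALDOC, in capitals within 30 bases of the GRCh37 (hg19) genome on the strand of the gene. A match is a description of the sequence and does not show that a factor binds there.
ALDOA: tgtggtccgagtCACGTccgaggggggtgg
ALDOC, nearest match: ccccggaggagtCACGTagctctgcgacat
ALDOC, E-box: gcaagtgcccggCACGTGgtaaagggattg
ENO1: ggagctgaggggGCGTGccccggaggcggg
ENO2: acccgcgctcgtACGTGcgcctccgccggc
PFKL: tgctcagggcccGCGTGacattgcacaggt
GAPDH: gttttacgggcgCACGTagctcaggcctca
PGK1: aaacggaagccgCACGTctcactagtaccc

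The stretch of ALDOA is at chr16:30076871-30076900 on the plus strand, inside the annotated gene but outside its exons. Those of ALDOC are at chr17:26903924-26903953, in an exon of another ALDOC transcript, and at chr17:26904136-26904165, before the gene, both on the minus strand. That of ENO1 is at chr1:8938800-8938829 on the minus strand and that of ENO2 at chr12:7023614-7023643 on the plus strand, each in an exon of another transcript of the gene. Those of PFKL (chr21:45719760-45719789) and GAPDH (chr12:6643547-6643576) are before the genes, and that of PGK1 (chrX:77359550-77359579) is inside the gene but outside its exons, all 3 on the plus strand.

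Of the 10 genes, 5 were lower after GLCC1 siRNA (ALDOA, ALDOC, ENO1, GAPDH and PGK1), 1 was higher (ENO3), and ENO2 and the 3 phosphofructokinase genes did not pass an adjusted p of 0.05 in the quasi-likelihood test of edgeR, adjusted over all 23074 genes. Of all genes tested, 16.7% were lower and 14.9% were higher at this threshold. The genes tested include many with few counts. With at least 10 counts required in every library, 3423 of 14604 genes were lower and 3430 higher, and of the 10 genes again 5 were lower and 1 higher. With library totals as the only scaling, 37.1% of the calls over all genes were lower, in place of 53.0%, and the 5 genes and ENO3 were called as before. The median log2 fold change was -0.29 over the 10 genes and 0.03 over all genes tested. The levels of the control and GLCC1 siRNA libraries did not overlap in 7 of the 10 genes, whereas 46.3% of all genes tested did not overlap. Without GLCC1 siRNA replicate 2, 5 of the 10 were again lower and 2 higher, PFKL having joined ENO3, and 22.6% of all genes were then lower and 21.6% higher. The log2 fold changes of the 6 genes called with all libraries were then -0.57 (ALDOA), -1.83 (ALDOC), -0.40 (ENO1), -0.39 (GAPDH), -0.37 (PGK1) and 0.79 (ENO3).

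**Figure D1:**
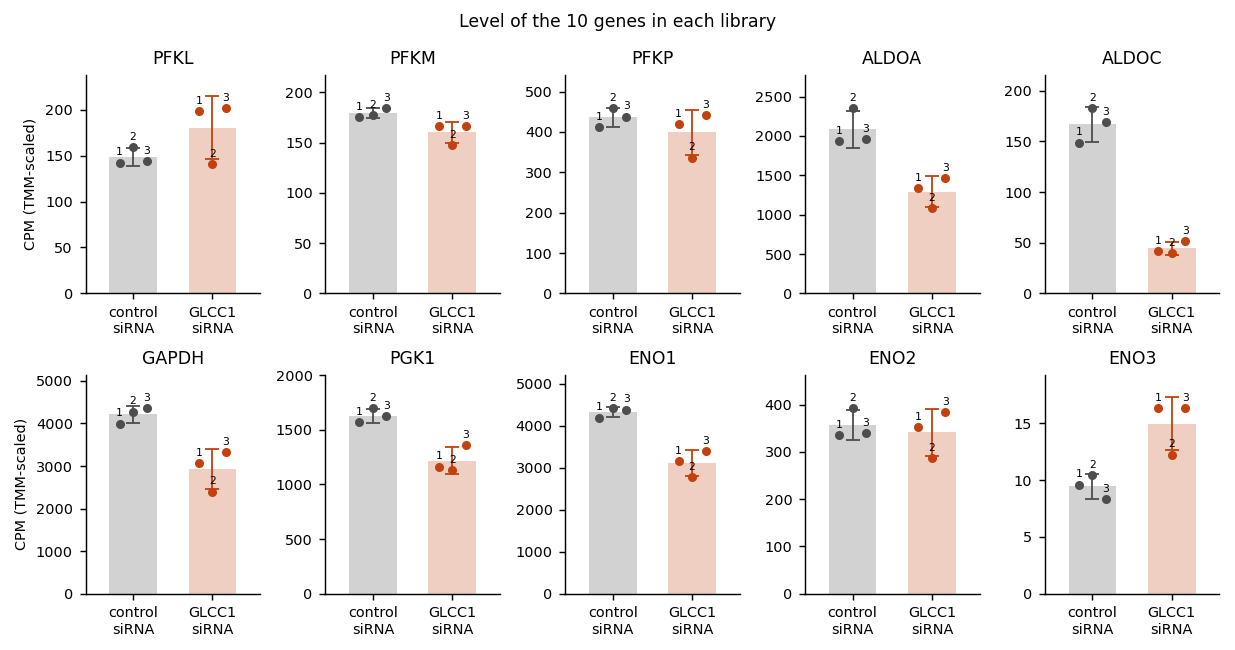
Level of each of the 10 genes in CPM, scaled by TMM, in each library, where points are libraries numbered by replicate, bars are means of 3 libraries and error bars are SD. The points of the groups do not overlap for PFKM, ALDOA, ALDOC, GAPDH, PGK1, ENO1 and ENO3, and replicate 2 is the lowest GLCC1 siRNA library in every panel.

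Both aldolase genes were lower after GLCC1 siRNA, and ALDOC had the largest fold change of the 10 genes. ALDOC, the brain-type aldolase on chromosome 17 (26900133 to 26903966, minus strand), stood at 149, 183 and 169 CPM in the control libraries and at 41.9, 40.0 and 52.0 CPM in the GLCC1 siRNA libraries. All 3 GLCC1 siRNA libraries were far below the lowest control library. The mean and SD of 3 libraries each were 167 ± 17.2 CPM for control siRNA and 44.6 ± 6.42 CPM for GLCC1 siRNA, and the log2 fold change was -1.90 (SE, the standard error, 0.11 and adjusted p = 1.0e-07), a level 3.74-fold lower. In the same way, means are given with ± SD and n = 3 per group from here on. ALDOA, on chromosome 16 (30075485 to 30081778, plus strand), stood at 1935, 2356 and 1961 CPM in the control libraries and at 1336, 1081 and 1460 CPM in the GLCC1 siRNA libraries. These groups did not overlap either, and ALDOA fell by 0.69 on the log2 scale (SE 0.11, adjusted p = 3.3e-04), from 2084 ± 236 to 1292 ± 193 CPM.

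The aldolase genes were next compared with each other by the ratio of their counts within each library, a value that does not depend on the scaling between libraries. For each count of ALDOA there were 0.0769, 0.0777 and 0.0862 counts of ALDOC in the control libraries and 0.0314, 0.0370 and 0.0356 in the GLCC1 siRNA libraries. The ratio was lower in all 3 GLCC1 siRNA libraries than in any control library, by 1.21 on the log2 scale (difference -1.21, SE 0.09), which is 0.431 times the ratio of the control libraries, and the difference was -1.26 without GLCC1 siRNA replicate 2. The two-sided exact permutation test gave p = 0.1, the smallest value that 3 libraries against 3 allow, and p = 0.133 after adjustment over the 8 ratios tested here. No ratio could therefore pass 0.05 by this test. ALDOC made up 7.43% ± 0.438 of the aldolase counts in the control libraries and 3.35% ± 0.275 after GLCC1 siRNA. Per kilobase of canonical transcript, the control level was 1271 CPM for ALDOA and 104 CPM for ALDOC, and the level after GLCC1 siRNA was 788 CPM and 27.8 CPM, so that ALDOA was the main aldolase transcript in both groups.

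**Figure D2:**
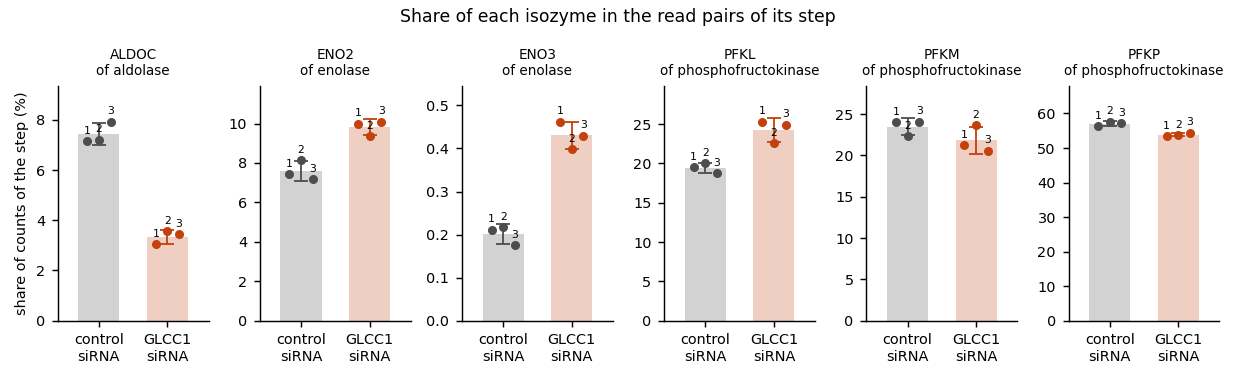
Share of the read pairs of its step that fell on each isozyme gene, in percent, in each library, where points are libraries numbered by replicate, bars are means of 3 libraries and error bars are SD. ALDOC made up 7.43% of aldolase counts in the control libraries and 3.35% after GLCC1 siRNA, ENO3 0.201% and 0.430% of enolase counts, and the groups overlap only for PFKM.

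The enolase genes differed in direction, with ENO1 lower, ENO3 higher and ENO2 not past the test. ENO1, the gene with the most counts of the 10 (chromosome 1, 8921059 to 8939249, minus strand), stood at 4193, 4418 and 4386 CPM in the control libraries and at 3159, 2777 and 3399 CPM in the GLCC1 siRNA libraries. It was lower in every GLCC1 siRNA library than in any control library, and fell by 0.48 on the log2 scale (SE 0.08, adjusted p = 5.9e-04). ENO2, the neuronal form (chromosome 12, 7022909 to 7032861), stood at 337, 393 and 340 CPM in the control libraries and at 353, 288 and 384 CPM in the GLCC1 siRNA libraries. Here the groups overlapped. The log2 fold change of ENO2 was -0.06 (SE 0.11, adjusted p = 0.69) and it changed sign to 0.05 (SE 0.06) without GLCC1 siRNA replicate 2, to 0.01 without control replicate 2 and to 0.06 with library totals. ENO3, the muscle form (chromosome 17, 4851387 to 4860426), stood at 9.60, 10.5 and 8.31 CPM in the control libraries and at 16.3, 12.2 and 16.3 CPM in the GLCC1 siRNA libraries. It was the only one of the 10 genes called higher with all 6 libraries and TMM scaling, with a log2 fold change of 0.67 (SE 0.14, adjusted p = 0.0027), and it also had the lowest level per kilobase, with 138 to 313 read pairs per library.

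Within libraries, the ratios of ENO2 and ENO3 to ENO1 were higher after GLCC1 siRNA. The ratio of ENO2 to ENO1 counts was 0.0803, 0.0889 and 0.0776 in the control libraries and 0.112, 0.104 and 0.113 in the GLCC1 siRNA libraries. The groups did not overlap, and the difference was 0.41 on the log2 scale (SE 0.07, exact permutation p = 0.1). Although ENO2 itself did not pass the test, its share of enolase counts was thus 7.58% ± 0.50 in the control libraries and 9.81% ± 0.409 after GLCC1 siRNA. The ratio of ENO3 to ENO1 was 2.20-fold higher after GLCC1 siRNA, a difference of 1.14 on the log2 scale (SE 0.12, exact permutation p = 0.1). The ratio of ENO3 to ENO2 was higher by 0.73 on the log2 scale (SE 0.08, exact permutation p = 0.1). Without GLCC1 siRNA replicate 2 the 3 differences were 0.45, 1.20 and 0.74. All 3 enolase ratios were higher in every GLCC1 siRNA library than in any control library. The share of ENO3 was nevertheless small, 0.201% ± 0.0226 of enolase counts in the control libraries and 0.430% ± 0.0322 after GLCC1 siRNA. Per kilobase of canonical transcript, the control levels were 2432 CPM for ENO1, 155 CPM for ENO2 and 6.51 CPM for ENO3, and after GLCC1 siRNA they were 1747, 149 and 10.3 CPM, an order in which no neighbours came near each other's spread.

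Markers of the tissues that give ENO2, ENO3 and PFKM their names were also examined. Of 11 markers of skeletal muscle, DES and TTN had a mean of at least 1 CPM, MYOD1 had no count in any library, and the list summed to 29.2 to 32.1 CPM in the control libraries and 25.4 to 29.2 CPM in the GLCC1 siRNA libraries. DES was lower after GLCC1 siRNA (log2 fold change -1.49, adjusted p = 5.0e-05) and TTN higher (0.40, adjusted p = 0.018). Of 10 neuronal markers, SYP and TUBB3 had a mean of at least 1 CPM and SNAP25, NEFL, NEFM, UCHL1 and STMN2 had no count in any library. The neuronal list summed to 95.6 to 109.6 CPM in the control libraries and 67.1 to 101.8 CPM in the GLCC1 siRNA libraries, most of it from TUBB3 (99.1 ± 7.19 CPM and 84.7 ± 18.6 CPM, log2 fold change -0.22, adjusted p = 0.23). MAP2, the only neuronal marker called, was higher (log2 fold change 1.53, SE 0.44, adjusted p = 0.016) at 0.326 ± 0.127 CPM in the control libraries and 0.960 ± 0.25 CPM after GLCC1 siRNA. The part of these markers in the levels of ENO2, ENO3 and PFKM was not tested.

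None of the 3 phosphofructokinase genes passed the test with all 6 libraries, TMM scaling and the filter of 5 counts in edgeR, or in DESeq2, and PFKL had an unadjusted p under 0.05 in edgeR (0.036). PFKL (chromosome 21, 45719934 to 45747259) stood at 142, 160 and 144 CPM in the control libraries and at 199, 141 and 202 CPM in the GLCC1 siRNA libraries. Replicates 1 and 3 of GLCC1 siRNA were above every control library, whereas replicate 2 was just below them all. The log2 fold change was 0.28 (SE 0.12, adjusted p = 0.094). Without GLCC1 siRNA replicate 2, PFKL was higher by 0.43 (SE 0.05, adjusted p = 2.7e-09). With all 6 libraries, PFKL also passed with library totals as the only scaling (0.40, adjusted p = 0.017) and with genes kept from 1 count in any library (0.28, adjusted p = 0.016). PFKM (chromosome 12, 48498922 to 48540187) stood at 175, 178 and 185 CPM in the control libraries and at 167, 148 and 166 CPM in the GLCC1 siRNA libraries. These values did not overlap, but the log2 fold change of -0.16 (SE 0.08, adjusted p = 0.16) did not pass the test, and it was -0.10 without GLCC1 siRNA replicate 2. PFKP (chromosome 10, 3108525 to 3179910) stood at 412, 460 and 438 CPM in the control libraries and at 419, 337 and 441 CPM in the GLCC1 siRNA libraries, with a log2 fold change of -0.13 (SE 0.10, adjusted p = 0.35), and of -0.02 without GLCC1 siRNA replicate 2.

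Within libraries, the ratios of PFKM and PFKP to PFKL were lower after GLCC1 siRNA. For each count of PFKL there were 1.23, 1.11 and 1.28 counts of PFKM in the control libraries and 0.838, 1.05 and 0.824 in the GLCC1 siRNA libraries. The groups did not overlap, with replicate 2 nearest to the controls, and the difference was -0.43 on the log2 scale (SE 0.13, exact permutation p = 0.1). For each count of PFKL there were 2.89, 2.88 and 3.04 counts of PFKP in the control libraries and 2.11, 2.39 and 2.18 in the GLCC1 siRNA libraries, a difference of -0.40 on the log2 scale (SE 0.06, exact permutation p = 0.1). Without GLCC1 siRNA replicate 2 these differences were -0.54 and -0.45. PFKL therefore made up 19.4% ± 0.636 of phosphofructokinase counts in the control libraries and 24.3% ± 1.51 after GLCC1 siRNA. The share of PFKP was 57.1% ± 0.610 in the control libraries and 53.9% ± 0.533 after GLCC1 siRNA, and that of PFKM was 23.5% ± 1.01 and 21.8% ± 1.62, with overlap. The ratio of PFKP to PFKM overlapped between the groups, with a difference of 0.03 on the log2 scale (SE 0.08, exact permutation p = 0.9) that changed sign without control replicate 1 or GLCC1 siRNA replicate 3 and was 0.09 without GLCC1 siRNA replicate 2. Per kilobase of canonical transcript, the control levels were 166 ± 9.16 CPM for PFKP, 58.0 ± 1.58 CPM for PFKM and 51.1 ± 3.29 CPM for PFKL. After GLCC1 siRNA, PFKL was at 62.1 ± 11.8 CPM and PFKM at 51.9 ± 3.46 CPM, an order of these neighbours opposite to that of the controls, with a gap within the SD of PFKL. Per kilobase of all annotated exons this order was not reversed, since PFKM then made up 25.4% and PFKL 17.1% of the step in the control libraries, and 23.8% and 21.5% after GLCC1 siRNA.

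The GC content of the transcripts moved with the values of GLCC1 siRNA replicate 2 among these genes. PFKL, the most GC-rich of the 10 (63.4%), was 0.51 lower on the log2 scale in replicate 2 than in the mean of replicates 1 and 3 (difference -0.51). PGK1, the least GC-rich (42.8%), was lower by 0.16 (difference -0.16), and PFKM (50.4%) was lower by 0.17 (difference -0.17). Over the 10 genes the Pearson r of this deviation with GC content was -0.82, given as a description since the values share 1 library. When the relation with GC content over genes was taken out of each library, an alternative chosen after seeing the data, the log2 ratio of PFKM to PFKL was 0.33, 0.31 and 0.41 in the control libraries and -0.25, -0.23 and -0.22 in the GLCC1 siRNA libraries. Replicate 2 then lay between the others of its group, and the difference was -0.58 (SE 0.03, exact permutation p = 0.1). The ratio of PFKP to PFKM, which overlapped before, then did not overlap, with a difference of 0.11 (SE 0.03, exact permutation p = 0.1).

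**Figure D3:**
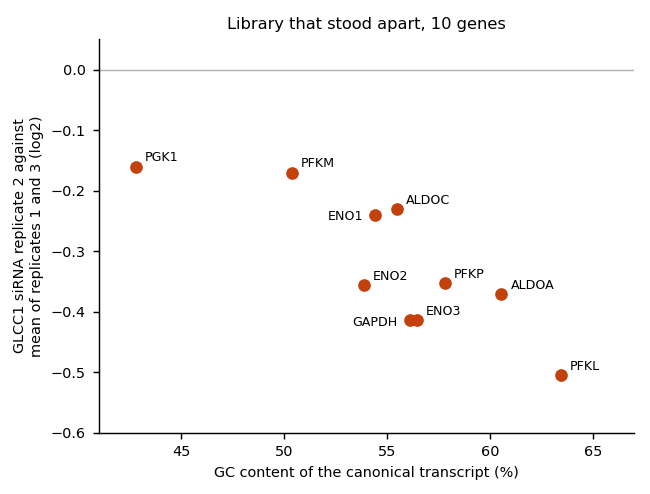
Deviation of GLCC1 siRNA replicate 2 from the mean of replicates 1 and 3 of its group, on the log2 scale, against the GC content of the canonical transcript in percent, with 1 point for each of the 10 genes. All 10 genes were lower in replicate 2, from -0.16 for PGK1 at 42.8% GC to -0.51 for PFKL at 63.4% GC.

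**Figure D4:**
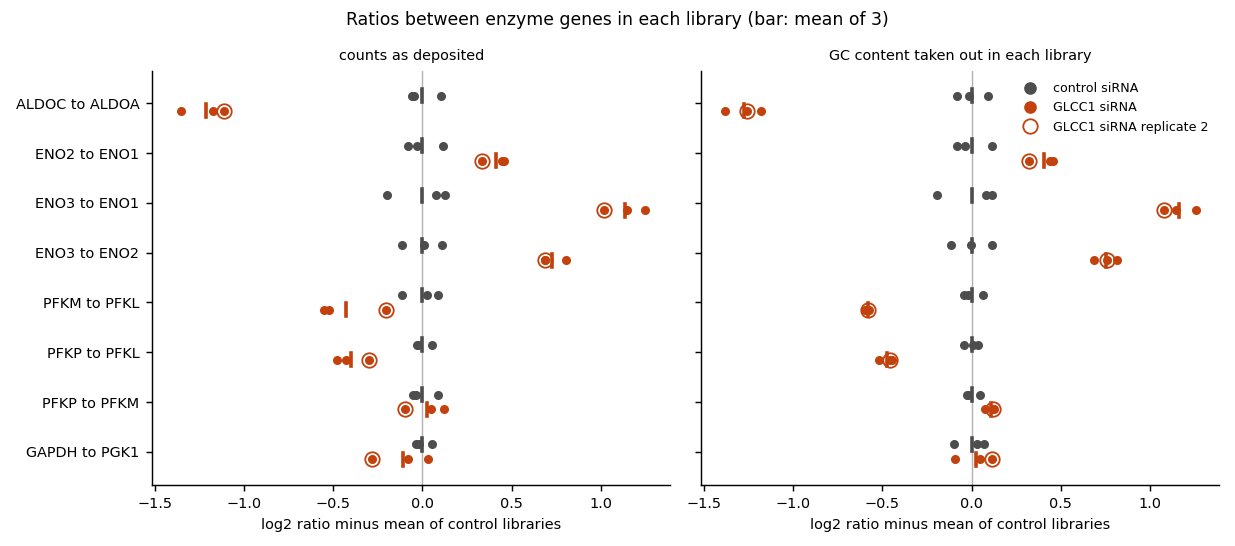
Log2 ratios between the counts of paired genes in each library, less the mean of the control libraries, with the counts as deposited on the left and with the relation to GC content taken out on the right, where points are libraries, bars are means of 3 and a ring marks GLCC1 siRNA replicate 2. On the left 6 of the 8 ratios do not overlap between the groups and PFKP to PFKM and GAPDH to PGK1 do, whereas on the right only GAPDH to PGK1 overlaps.

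GAPDH and PGK1, the neighbouring enzymes between aldolase and enolase, were both lower after GLCC1 siRNA. GAPDH (chromosome 12, 6643678 to 6647540) stood at 3996, 4280 and 4358 CPM in the control libraries and at 3064, 2397 and 3323 CPM in the GLCC1 siRNA libraries. PGK1 (chromosome X, 77166236 to 77384792) stood at 1569, 1697 and 1622 CPM in the control libraries and at 1162, 1128 and 1359 CPM in the GLCC1 siRNA libraries. Neither gene overlapped between the groups. The log2 fold change was -0.52 (SE 0.10, adjusted p = 0.0016) for GAPDH and -0.42 (SE 0.08, adjusted p = 0.0017) for PGK1. The ratio of GAPDH to PGK1 was 2.55, 2.52 and 2.69 in the control libraries and 2.64, 2.13 and 2.45 in the GLCC1 siRNA libraries, which overlapped, and its difference of -0.11 on the log2 scale (SE 0.10, exact permutation p = 0.4) was smaller than the spread among the GLCC1 siRNA libraries. This difference was -0.03 without GLCC1 siRNA replicate 2 and 0.02 with GC content taken out.

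GAPDH and PGK1 are in common use as reference genes for normalizing RNA measurements, and were therefore set against 15 other genes in such use. Of the 15, 4 were lower (among them IPO8, RPLP0 and RPL13A), 2 were higher (B2M and TFRC) and 9 did not pass the test. Over all genes tested, 16.7% were lower and 14.9% higher. The median log2 fold change of the 15 was -0.06. The highest was B2M (log2 fold change 0.57, adjusted p = 8.5e-05). Against the mean log2 count of the 15 genes, GAPDH was lower by 0.40 (difference -0.40, SE 0.11) and PGK1 by 0.29 (difference -0.29, SE 0.06). Neither ratio overlapped between the groups, each with an exact permutation p = 0.1. Without GLCC1 siRNA replicate 2 the differences were -0.30 and -0.28. ACTB, the actin gene most often used beside GAPDH, had a log2 fold change of -0.04 (SE 0.11, adjusted p = 0.79).

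Summed over isozymes, aldolase counts were 2251 ± 250 CPM in the control libraries and 1337 ± 199 CPM after GLCC1 siRNA, a difference of -0.76 on the log2 scale. Enolase counts were 4697 ± 145 CPM and 3467 ± 365 CPM, a difference of -0.44. Neither sum overlapped between the groups (exact permutation p = 0.1 for each), and without GLCC1 siRNA replicate 2 the differences were -0.64 and -0.36. Phosphofructokinase counts were 764 ± 34.0 CPM in the control libraries and 740 ± 99.6 CPM after GLCC1 siRNA, and they overlapped, with a difference of -0.06 (exact permutation p = 0.9). This difference was 0.06 without GLCC1 siRNA replicate 2 and 0.07 with library totals. ALDOA and ENO1 made up 92.6% and 92.2% of the counts of their steps in the control libraries.

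The other glycolytic enzymes and regulators on a list of 24 genes are given for the position of the 10 in the pathway. Of the 24, 19 passed the filter on low counts, 7 were lower, none was higher, and 12 did not pass the test. The shares over all genes tested were 16.7% lower and 14.9% higher. Without GLCC1 siRNA replicate 2, 9 of the list were lower and 0 higher, and 22.6% of all genes were then lower and 21.6% higher. With each library left out in turn, 6 to 9 were lower and 0 higher, while 2833 to 5076 of all genes were lower and 2381 to 4844 higher. Library totals as the only scaling gave 5 lower and 1 higher, where 2797 of all 23074 genes were lower and 4735 higher. With all 6 libraries and TMM scaling, none of the 19 was higher at an unadjusted p under 0.05 in edgeR. DESeq2 in place of edgeR again gave 7 lower and 0 higher. The 7 were HK2, which phosphorylates glucose (log2 fold change -0.51), GPI, which makes fructose phosphate (-0.37), PFKFB3 and PFKFB4, which set the level of an activator of phosphofructokinase (-0.76 and -0.44), PKM, the pyruvate kinase (-0.46), and LDHA and LDHB, the subunits of lactate dehydrogenase (-1.79 and -0.30). The 16 of the 19 with a mean of at least 1 CPM had a median log2 fold change of -0.28. LDHA and LDHB form another pair of isozymes, and the log2 fold change of LDHA was the lower of the pair. LDHA stood at 2931, 2924 and 2972 CPM in the control libraries and at 782, 872 and 895 CPM in the GLCC1 siRNA libraries. ALDOC and LDHA were the lowest of the 26 genes in the plot of enzymes in pathway order. PGAM1 and TPI1, which stand between the steps described, had log2 fold changes of 0.10 (SE 0.07, adjusted p = 0.36) and -0.30 (SE 0.12, adjusted p = 0.070).

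**Figure D5:**
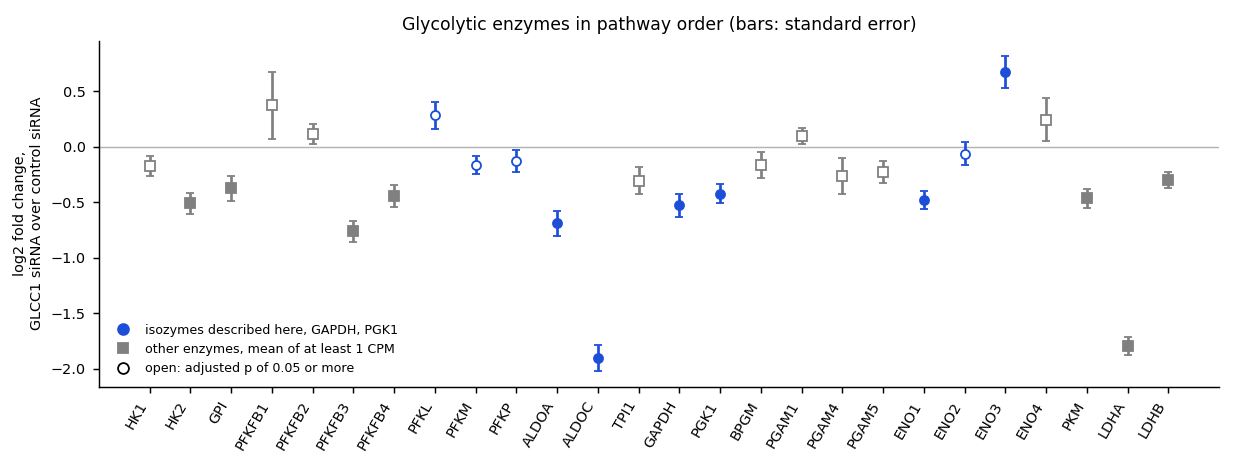
Log2 fold change of GLCC1 siRNA over control siRNA, with its standard error, for the 10 genes (circles) and 16 other glycolytic genes whose mean was 1 CPM or more (squares), in pathway order from left to right, with filled symbols for genes with an adjusted p under 0.05 in edgeR. ALDOC at -1.90 and LDHA at -1.79 lie lowest, and ENO3 at 0.67 is the only filled symbol above 0.

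The isozymes are similar in sequence, which matters for reads that fall in shared stretches. Their coding sequences were identical at 75.4% of aligned bases for ALDOA and ALDOC, at 75.9% to 78.3% for the 3 enolase pairs and at 70.1% to 70.5% for the 3 phosphofructokinase pairs. The longest stretch shared without a mismatch was 44 bases for ALDOA and ALDOC, 50 for ENO1 and ENO2, and 21 to 35 for the other 5 pairs. No exon of another listed gene overlapped the canonical exons of the 10 genes. Pseudogenes, copies of a gene that make no enzyme, are listed 58 times for GAPDH, and their counts together came to 0.252% of those of GAPDH. One of them, GAPDHP1, had 77, 308 and 135 read pairs in the control libraries and 86, 20 and 79 in the GLCC1 siRNA libraries, and how many of these came from GAPDH RNA was not tested. The pseudogenes named after ALDOA, ENO1 and PGK1 had 0, 1 and 6 read pairs in all 6 libraries together. Only symbols made of the symbol of the gene, P and a number were counted, so that pseudogenes under other names are not included.

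The genes whose levels followed those of ALDOC and ENO3 most closely over the 6 libraries were found among 10377 genes whose mean was 10 CPM or more, by the Pearson r of log2 CPM, given as a description. For ALDOC they were CREM, AKAP10 and SH2D3A, each with r = 0.9998. For ENO3 they were ARSD (0.9959), HNRNPA0 (0.9957) and ATP9A (0.9954). These values share the same 6 libraries. The log2 fold changes were -0.62, -0.55 and -1.11 for CREM, AKAP10 and SH2D3A and 0.32, 0.13 and 0.32 for ARSD, HNRNPA0 and ATP9A, and HNRNPA0 did not pass the test (adjusted p = 0.23).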

How the data were processed

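The authors mapped paired-end reads with TopHat2 2.0.11 to hg19, per the submitters' processing notes, and deposited, for each gene symbol, unnormalized counts of read pairs from HTSeq in union mode. The strand setting is not given in the sources used here. Read pairs that fell on no gene (11.2% to 14.2%) or were ambiguous between genes (8.19% to 8.89%) were left out. So were pairs without a unique alignment (10.8% to 12.4% of all tallied pairs), and genes with fewer than 5 counts over the 3 libraries in both groups. Counts were TMM-scaled and compared in edgeR 4.0.16 (R 4.3.3) by the robust quasi-likelihood test with Benjamini-Hochberg adjustment. Ratios and sums were compared by two-sided exact permutation in scipy 1.17.1. Positions and lengths are from GENCODE 44 on GRCh37, the build but not the annotation of the files.

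Genes named are the 10 members, tested genes of the glycolysis list, reference genes that were called, listed markers, pseudogenes with at least 10 counts in a library and the 3 genes most like ALDOC and ENO3. ACTB and GAPDHP1 have values of their own, and ACTB was chosen after its value was seen. Members and lists were chosen with earlier results of these data known. Scripts were tested on simulated data.

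Alternatives were DESeq2 1.42.0, its size factors, library totals, other filters, an adjusted p under 0.001, a replicate block, the library names, pseudogene counts, gene lengths, other summaries of the reference genes and each library left out. Taking out GC content, lengths of all exons, scaling to reference genes not called, and the settings of the sums were chosen after seeing the data. Some results are not reported here. No library was a copy of another. The study states for its experiments in general that biological replicates were collected separately, and the labels do not say this of these libraries, so p-values may in part measure technical spread.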

Additional observations from a re-analysis of the deposited data

How the results depend on the processing

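The 3 libraries of each group limit every exact test to p = 0.1, and at the 138 to 313 read pairs of ENO3 the standard error (0.14) was the largest of the 10 genes. With the conditions of the library names, 1 of the 10 genes was lower and 5 were higher, and 0 of the other glycolytic genes were lower and 7 higher. Of all 23074 genes tested, 3429 were then lower and 3864 higher. The log2 fold changes were then 0.69 (ALDOA), 1.90 (ALDOC), 0.48 (ENO1), 0.062 (ENO2), -0.67 (ENO3), -0.28 (PFKL), 0.16 (PFKM), 0.13 (PFKP), 0.52 (GAPDH) and 0.42 (PGK1). Library totals moved the median of all genes from 0.03 to 0.15. With them, 2 of the 10 genes and 1 other glycolytic gene were higher, beside 4735 of all 23074 genes tested. Lower were 5 other glycolytic genes, beside 2797 of all genes. ENO2 was then at 0.059, the phosphofructokinase sum at 0.067, and 37.1% of all calls were lower in place of 53.0%. With genes kept from 1 count, 2 of the 10 were higher, beside 3692 of all 30877 genes then tested. At an adjusted p under 0.001, 3 were lower and 0 higher, and the share of all genes at that threshold is not given here. ENO2 was at 0.012 without control replicate 2 and at 0.050 without GLCC1 siRNA replicate 2, which also put the phosphofructokinase sum at 0.061. The ratio of PFKP to PFKM was -0.00025 without control replicate 1 and -0.024 without GLCC1 siRNA replicate 3. With GC content taken out, GAPDH to PGK1 was at 0.023. Per kilobase, the share of ENO3 rose by 0.288 points on canonical and 0.271 on all exons, and that of ALDOC changed by -5.69 points on all exons. The cause of these changes was not tested. With each library left out in turn, 5 of the 10 genes were lower each time and 1 to 2 higher. Of the 22330 to 22709 genes tested in these settings, 2833 to 5076 were lower and 2381 to 4844 higher. ENO2 was then between -0.15 and 0.050, the phosphofructokinase sum between -0.12 and 0.061 and the PFKP to PFKM ratio between -0.024 and 0.086, and the difference in the share of PFKM between -2.58 (without GLCC1 siRNA replicate 2) and -1.03 points. The same-numbered libraries did not deviate together (r of -0.155, -0.288 and -0.008 over 14875 genes), and no library correlated best with its own number. The replicate block gave 6522 calls against 7293, with 5 of the 10 genes lower and 1 higher. Leaving the library names aside, 114 log2 fold changes of the 10 genes tested under other settings kept their direction and side of the threshold, 3 of PFKL passed it and 3 of ENO2 changed sign. Scaled to the reference genes not called, which gives no test, all 10 kept their direction.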
